A study of Mus musculus with 5 samples.

Results

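Aminoacyl-tRNA synthetases are the enzymes that load each amino acid onto its transfer RNA, and they were examined here as 35 named genes, 20 for the cytosolic enzymes and 15 for the mitochondrial enzymes, out of 23361 genes in the table. Membership was set by gene symbol alone. The mitochondrial genes are those whose symbol ends in 2, and Lars2 was left out. Their levels are given in FPKM, the number of fragments per kilobase of gene after scaling to library size, so that genes of different length can be compared. Averaged over the 5 libraries, 11128 genes reached 1 FPKM, and all 35 synthetase genes were among them. The cells were C2C12, a mouse myoblast line, harvested while proliferating in high-glucose medium with serum. A first pair of cultures carried a short hairpin RNA, against PKM2 (shPKM2) or as a control (shControl), for 72 h. The other cultures were exposed for 8 h to vehicle, to shikonin or to TEPP-46. The target, PKM2, is a splice form of pyruvate kinase, the last enzyme of glycolysis. Shikonin, a naphthoquinone made by plants, is used to inhibit it, and TEPP-46 is known to activate it. The doses, and whether the hairpin cells were a clone or a pool, are not given in the labels. Each condition had 1 library, so no difference below has a replicate check and no p-value was computed.

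Animal cells keep separate sets of synthetases for protein synthesis in the cytosol and in mitochondria, and both sets are encoded in the nucleus. Several cytosolic enzymes are held together in the multisynthetase complex by the scaffold proteins AIMP1, AIMP2 and AIMP3. Many cytosolic synthetase genes are known targets of ATF4, the transcription factor of the integrated stress response, which is switched on when amino acids run short or the eIF2 kinases are active. The enzymes also divide into class I and class II by the fold of their catalytic domain.

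Low values moved in steps of single reads, which put the depth of a library at an estimated 24.8 to 34.3 times 1000000 reads. That corresponds to about 2160 to 25955 reads for a cytosolic gene and 221 to 5518 for a mitochondrial gene in a library. Pkm stood at 1041 FPKM in shPKM2 and at 2061 FPKM in shControl, with 1321 FPKM in vehicle, so shControl also stood above vehicle. The value is for the gene as a whole, so the level of the PKM2 splice form cannot be read from it. The myoblast genes Myod1 and Des were present in every library, Myod1 at 26.1 to 63.3 FPKM with its lowest level in shikonin, and Ptprc, Pecam1, Epcam and Adipoq, markers of blood, endothelium, epithelium and fat, were below 0.15 FPKM in all of them. Interferon-stimulated genes separated the hairpin libraries from the rest, with Isg15 at 250.1 FPKM in shPKM2 and 289 FPKM in shControl but at most 1.59 FPKM in the 8 h libraries. Hairpin and 72 h culture cannot be told apart in that contrast. Levels are relative to each library's own scale, so a change in total RNA per cell cannot be seen. Differences below are on the log2(FPKM + 1) scale, and the SE beside them covers counting error only.

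The level of every cytosolic gene lay above that of every mitochondrial gene within each of the 5 libraries. In the vehicle library the cytosolic genes ran from 42.4 FPKM for Cars, the cysteine enzyme, to 227 FPKM for Gars, the glycine enzyme, with a median of 86.3 FPKM. The mitochondrial genes of the same library ran from 3.50 FPKM for Wars2, the tryptophan enzyme, to 30.4 FPKM for Iars2, the isoleucine enzyme, with a median of 6.87 FPKM. The smallest separation was therefore in the vehicle library, where the lowest cytosolic level was 1.39 times the highest mitochondrial level, and the largest was in shikonin at 1.73 times.

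Nars, the asparagine enzyme, and Gars had the highest mean levels of all 35 genes. Nars stood at 179 FPKM in shPKM2, 169 FPKM in shControl, 225 FPKM in vehicle, 353 FPKM in shikonin and 376 FPKM in TEPP-46. Its mitochondrial counterpart Nars2 had the lowest mean, with 2.61 FPKM in shPKM2, 2.81 FPKM in shControl, 3.76 FPKM in vehicle, 2.48 FPKM in shikonin and 4.62 FPKM in TEPP-46. The asparagine pair thus spanned the whole range of the family, the cytosolic level being 59.9 times the mitochondrial level in vehicle and 143 times in shikonin. At the other end Yars, the tyrosine enzyme, was only 2.31 times as high as Yars2 in vehicle.

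**Figure D1:**
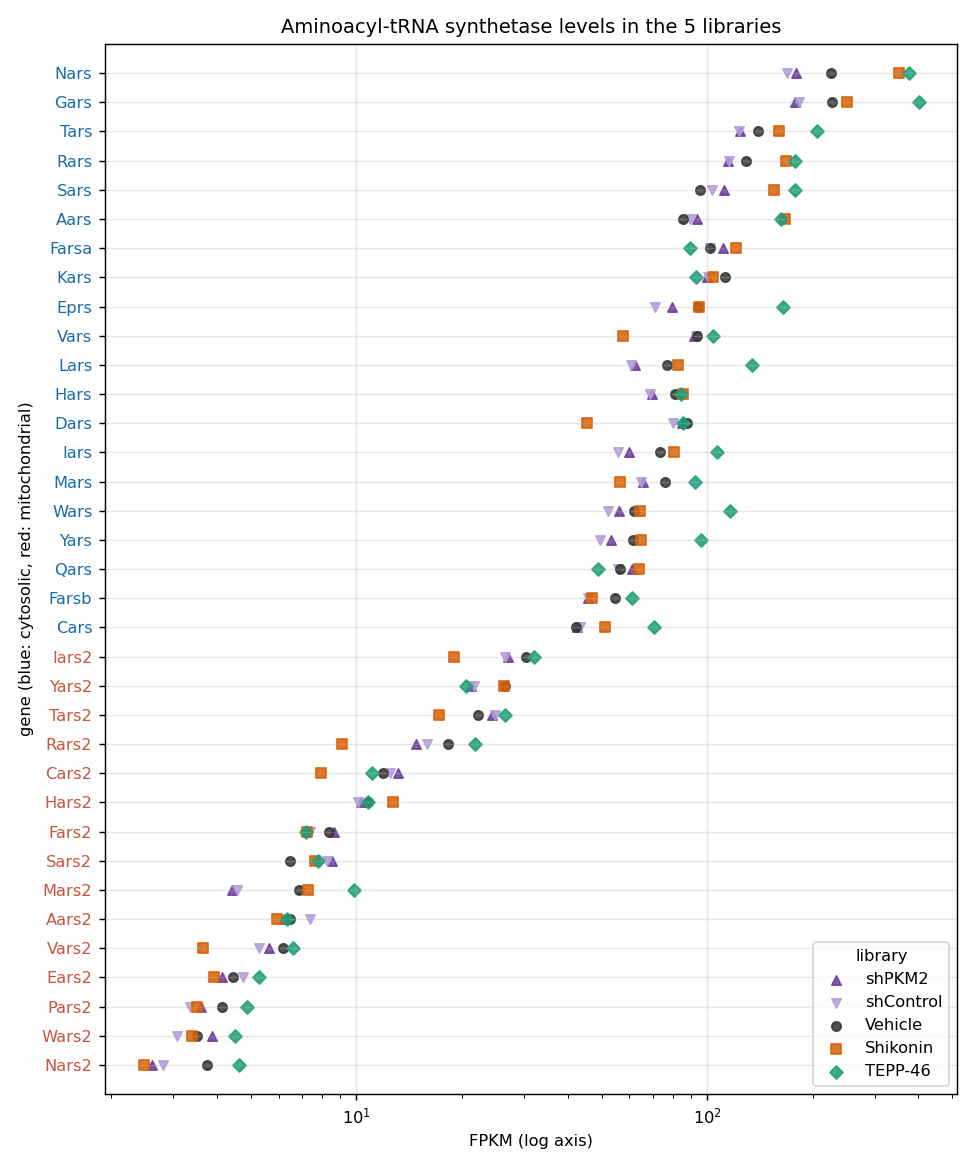
FPKM of each aminoacyl-tRNA synthetase gene (rows, ordered by mean level) in the 5 libraries (symbols) on a log axis, with cytosolic genes named in blue and mitochondrial genes in red. The cytosolic rows lie above all mitochondrial rows, and TEPP-46 is the rightmost symbol for 14 of the 20 cytosolic genes. The share of all genes highest in TEPP-46 was not computed.

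The summed level of the 20 cytosolic genes was 1975 FPKM in vehicle, 2272 FPKM in shikonin and 2848 FPKM in TEPP-46. That of the 15 mitochondrial genes was 170.2 FPKM in vehicle, 137 FPKM in shikonin and 179.6 FPKM in TEPP-46. The cytosolic sum was accordingly 11.6 times the mitochondrial sum in vehicle, 16.6 times in shikonin and 15.9 times in TEPP-46, against 11.3 times in shPKM2 and 10.9 times in shControl. Both compound libraries stood above the other 3 in this ratio, TEPP-46 mainly through a larger cytosolic sum (1.44 times vehicle) and shikonin through a larger cytosolic sum (1.15 times) together with a smaller mitochondrial sum (0.806 times). Without Gars and Nars, chosen after their values were seen, the ratio was 8.95 in vehicle, 12.2 in shikonin and 11.5 in TEPP-46. The ratio of the class medians did not follow this order, at 12.6 in vehicle, 11.5 in shikonin and 13.6 in TEPP-46.

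The comparison of TEPP-46 with vehicle asks how the genes stood 8 h after a PKM2 activator was given. Cytosolic synthetase genes stood higher as a group: 16 of 20 were higher, with a median difference of 0.54 against 0.00 over all genes. No synthetase gene reached 2-fold, a size reached upward by 1.23% and downward by 0.359% of all genes, but 9 of 20 were at least 1.5-fold higher, against 3.44% of all genes. The limit of 1.5-fold was added after the values were seen. Mitochondrial genes had a median of 0.19, with 10 of 15 higher and none 1.5-fold higher. That median was 0.112 with a pseudocount of 5, 0.0768 with a minimum mean of 5 FPKM and 0.120 with shControl as the control.

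The 9 genes past 1.5-fold with TEPP-46 were those for alanine (Aars), tryptophan (Wars), serine (Sars), glycine (Gars), glutamate with proline (Eprs), leucine (Lars), asparagine (Nars), cysteine (Cars) and tyrosine (Yars). Aars stood at 93.3 FPKM in shPKM2, 89.3 FPKM in shControl, 85.02 FPKM in vehicle, 167 FPKM in shikonin and 163 FPKM in TEPP-46. Its level was alike in the libraries without a compound and markedly higher in both compound libraries, with a difference of 0.93 (counting SE 0.014) for TEPP-46. The gene lies on chromosome 8 (111033144 to 111057664, plus strand, GRCm38). Part of its exons, 1403 bases, overlap other annotated genes, among them Exosc6.

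Wars was 55.98 FPKM in shPKM2, 52.1 FPKM in shControl, 61.7 FPKM in vehicle, 64.3 FPKM in shikonin and 116 FPKM in TEPP-46, so that TEPP-46 stood alone above the other 4 libraries. Its difference from vehicle was 0.90 (counting SE 0.024). Wars is known as an interferon-inducible synthetase. In the hairpin libraries, where Isg15 was high, Wars was lower than in vehicle (-0.24 in shControl).

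Gars was 178 FPKM in shPKM2, 183 FPKM in shControl, 227 FPKM in vehicle, 250.1 FPKM in shikonin and 401 FPKM in TEPP-46. It reached the highest level of any member in any library there, and its difference from vehicle was 0.82 (counting SE 0.014). Gars, like Kars, makes both the cytosolic and the mitochondrial enzyme from a single gene. Kars, the lysine enzyme, went the other way at 112.5 FPKM in vehicle and 93.1 FPKM in TEPP-46 (-0.27, counting SE 0.024).

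Eprs, which joins the glutamate and proline enzymes in a single chain, stood at 79.2 FPKM in shPKM2, 70.8 FPKM in shControl, 94.1 FPKM in vehicle, 95.04 FPKM in shikonin and 165 FPKM in TEPP-46. Here too TEPP-46 was set apart, while shikonin and vehicle were within counting error of each other. Lars showed the same order, at 76.8 FPKM in vehicle, 82.4 FPKM in shikonin and 134 FPKM in TEPP-46. Sars was 95.3 FPKM in vehicle and 178.0 FPKM in TEPP-46, a difference of 0.89 (counting SE 0.018). Cars was 42.4 FPKM in vehicle and 70.7 FPKM in TEPP-46, and Yars 61.2 FPKM and 95.9 FPKM.

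Below 1.5-fold but on the high side with TEPP-46 stood Tars (threonine, 0.55), Iars (isoleucine, 0.53), Rars (arginine, 0.46) and Mars (methionine, 0.28). The 4 cytosolic genes that were lower were Kars, Qars (glutamine, -0.21), Farsa (phenylalanine, -0.19) and Dars (aspartate, -0.03). Farsa and Farsb encode the alpha and beta subunits of a single phenylalanine enzyme, and they differed in opposite directions: Farsb stood at 0.15 with TEPP-46. The ratio of the Farsa level to the Farsb level was 1.87 in vehicle, 1.47 in TEPP-46 and 2.58 in shikonin, with 2.43 in shPKM2 and 2.24 in shControl. Exons of Farsb overlap the gene Sgpp2 over 248 bases.

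Genes of the multisynthetase complex had a lower median than the other cytosolic genes. Of its 8 synthetase members 5 were higher with TEPP-46 and 2 were past 1.5-fold (median 0.37), whereas 11 of the other 12 cytosolic genes were higher and 7 were past 1.5-fold (median 0.68). The scaffold genes Aimp1, Aimp2 and Eef1e1, the last for AIMP3, were within 0.02 to 0.12 of vehicle. Class I genes had a median of 0.53 (8 of 9 higher) and class II genes of 0.35 (7 of 10 higher), with Eprs belonging to both classes. These medians describe 1 pair of libraries.

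**Figure D2:**
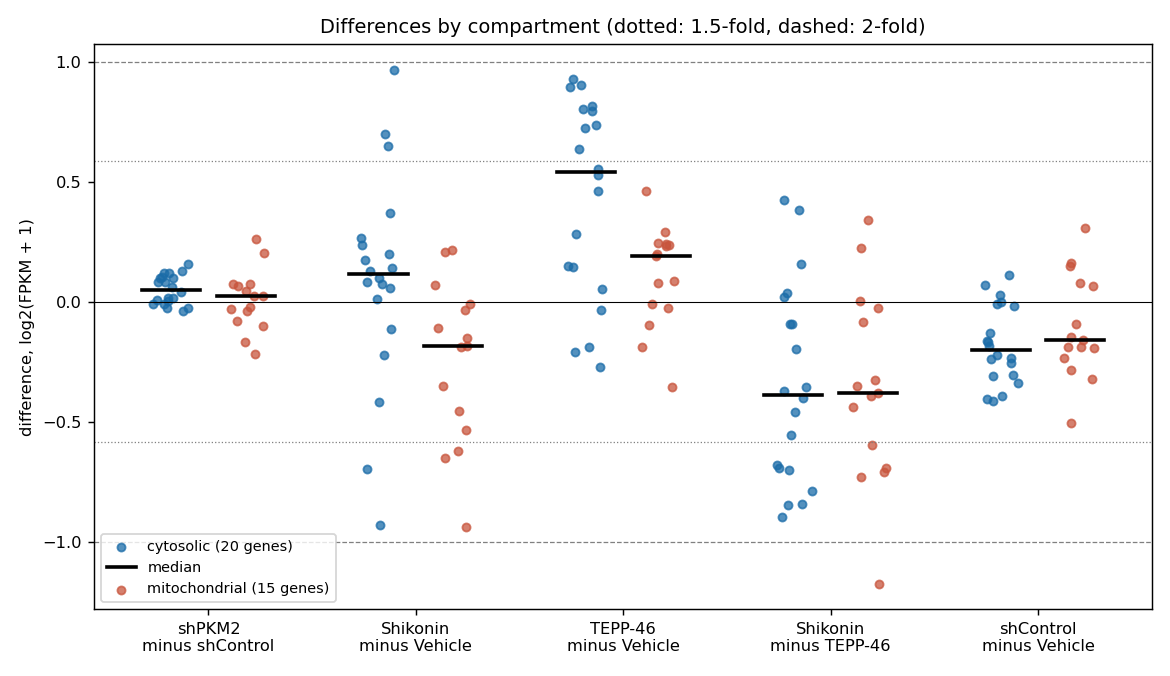
Difference in log2(FPKM + 1) of each cytosolic (blue, 20 genes) and mitochondrial (red, 15 genes) synthetase gene in 5 comparisons, with black bars at the medians, dotted lines at 1.5-fold and dashed lines at 2-fold. The cytosolic median is 0.54 for TEPP-46 and 0.11 for shikonin against vehicle, and the mitochondrial median is 0.19 and -0.18.

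Most genes of the ATF4 list were higher in both compound libraries. Atf4 itself stood at 239 FPKM in vehicle, 407 FPKM in shikonin and 737 FPKM in TEPP-46. Asns, the asparagine synthetase gene, stood at 151 FPKM, 181 FPKM and 287 FPKM in the same libraries. All 6 listed readouts (Atf4, Ddit3, Trib3, Asns, Chac1 and Psat1) were higher with TEPP-46 than with vehicle, and all 6 were higher with TEPP-46 than with shikonin. With shikonin 5 of the 6 were higher than in vehicle. Psat1, a gene of serine synthesis, was the exception at 287 FPKM in vehicle and 214 FPKM in shikonin (-0.42). Their part in the synthetase levels was not tested.

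The promoters of 26 of the 35 genes were given by RefSeq on GRCm38.p6, as windows of 250 bases before to 50 bases after the start of the gene. Cars, Hars, Lars, Nars, Rars, Vars, Wars, Hars2 and Pars2 had no window. Both strands were searched for TGATGNAA, a core of the C/EBP-ATF response element to which ATF4 binds, and for ATTGCATCA, whose last 8 letters are a reverse-strand match of the first motif, so that the motifs overlap. Of 13 cytosolic genes with a window 5 held TGATGNAA (Aars, Gars, Iars, Tars and Yars), and of 13 mitochondrial genes none did. Of all 32851 mouse windows, 3.97% held it. ATTGCATCA was found for Aars and Iars, and in 0.192% of all windows. The stretches around the matches are shown because the 5 genes were all higher with TEPP-46, and capitals mark the matched letters. Each runs 5′ to 3′ on the strand of the gene.
Aars, chr8:111033700-111033767, plus strand: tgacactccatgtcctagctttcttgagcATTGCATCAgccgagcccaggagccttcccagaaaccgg
Gars, chr6:55037941-55038000, plus strand: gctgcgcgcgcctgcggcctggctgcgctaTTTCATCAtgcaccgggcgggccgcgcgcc
Tars, chr15:11399659-11399703, minus strand: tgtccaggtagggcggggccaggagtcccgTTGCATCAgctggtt
Iars, chr13:49682126-49682155, plus strand: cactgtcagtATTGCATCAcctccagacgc
Yars, chr4:129189895-129189924, plus strand: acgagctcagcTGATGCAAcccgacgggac

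With the start base counted as 0, the matches began at -112 in Aars, -30 in Gars, -15 in Tars, 3 in Yars and 7 in Iars, and Aars had a further match at 9. With TEPP-46, Dars differed by -0.03, Farsa by -0.19 and Rars2 by 0.24, the last above the mitochondrial median of 0.19. Sars and Eprs, which stood high without a match, are not printed, so the stretches shown do not represent all genes without a match. The last 80 bases before the start of Dars, Farsa and Rars2, where neither motif occurs, are shown for comparison.
Dars, chr1:128417417-128417496, minus strand: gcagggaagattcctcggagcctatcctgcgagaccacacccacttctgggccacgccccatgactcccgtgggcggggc
Farsa, chr8:84856906-84856985, plus strand: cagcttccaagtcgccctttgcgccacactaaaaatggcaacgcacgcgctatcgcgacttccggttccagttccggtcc
Rars2, chr4:34614877-34614956, plus strand: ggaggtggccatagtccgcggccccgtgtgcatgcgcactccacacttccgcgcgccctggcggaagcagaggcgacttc

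The 5 cytosolic genes with a match differed by 0.53 to 0.93 with TEPP-46, and the 8 with a window but no match by -0.27 to 0.89. Sars (0.89) and Eprs (0.80) had no match and were among the highest, so genes without these letters could stand as high as those with them. The 7 cytosolic genes without a window could not be searched, and all 7 were higher with TEPP-46, by 0.06 to 0.90. Their median was 0.73, against 0.64 for the 5 with a match and 0.06 for the 8 with a window but no match. With shikonin the 5 genes with a match differed by 0.08 to 0.97. The 8 with a window but no match differed by -0.93 to 0.70, and the 7 without a window by -0.69 to 0.65. A match describes letters in the window and does not show that a factor was bound.

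**Figure D3:**
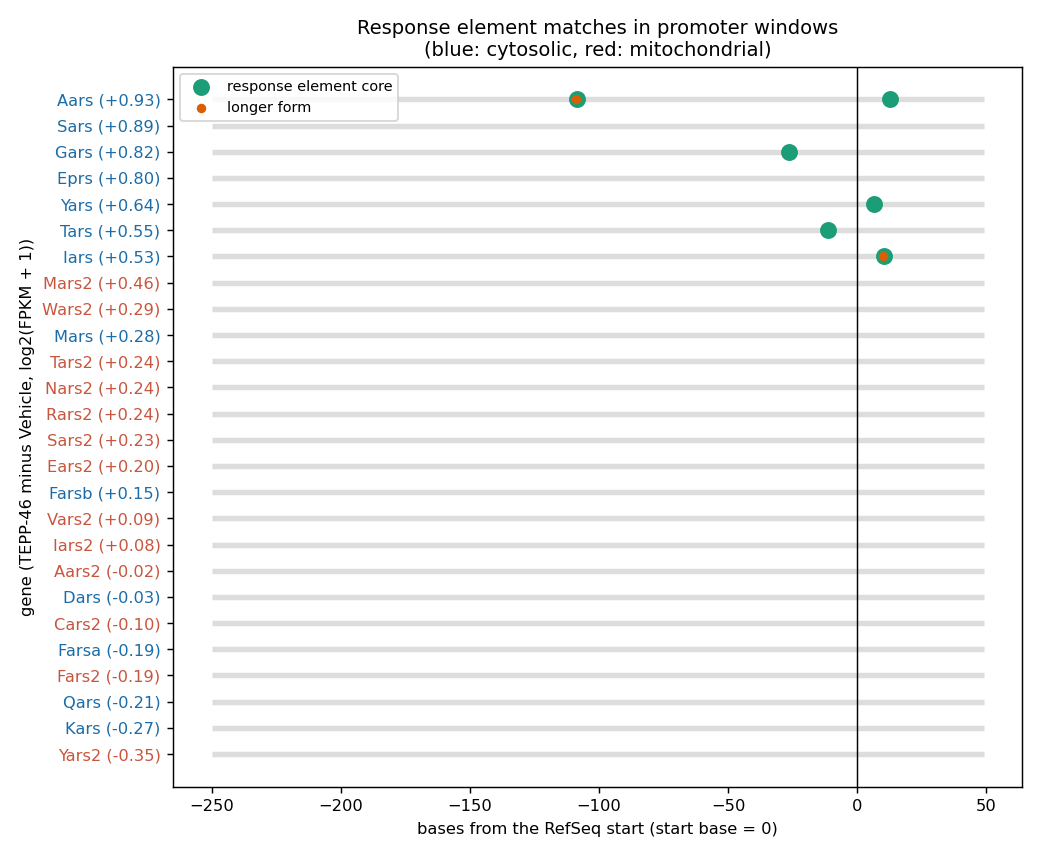
Positions of matches to the response element core (green) and to its longer form (orange) in the promoter windows of 26 synthetase genes (rows, ordered by the difference between TEPP-46 and vehicle in log2(FPKM + 1), given beside each name), in bases from the RefSeq start. Cytosolic genes are named in blue and mitochondrial genes in red, and the matches lie in 5 cytosolic rows, all at a difference of 0.53 or more.

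For shikonin, the PKM2 inhibitor, the question was the same, and its differences share the vehicle library with those of TEPP-46. The cytosolic genes diverged among themselves. Aars, Sars and Nars were at least 1.5-fold higher, while Dars and Vars were at least 1.5-fold lower. On the log2(FPKM + 1) scale no synthetase gene reached 2-fold, against 4.01% of all genes upward and 3.5% downward. The shares past 1.5-fold, 15% of cytosolic genes upward and 10.0% downward, were near those of all genes, 11.9% and 13.4%. The median was 0.11, against -0.03 for all genes, and 15 of 20 were higher. It was 0.047 after rescaling to TPM and 0.345 with shControl as the control.

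Dars, on chromosome 1 (128363707 to 128417368, minus strand), stood at 84.5 FPKM in shPKM2, 79.9 FPKM in shControl, 87.6 FPKM in vehicle, 45.5 FPKM in shikonin and 85.5 FPKM in TEPP-46. Shikonin alone was low, by -0.93 from vehicle (counting SE 0.035), and the other 4 libraries lay close together. Vars, the valine enzyme, showed the same shape with 91.6 FPKM in shPKM2, 93.1 FPKM in shControl, 93.6 FPKM in vehicle, 57.5 FPKM in shikonin and 103.7 FPKM in TEPP-46. Mars was next, at 75.8 FPKM in vehicle, 56.6 FPKM in shikonin and 92.4 FPKM in TEPP-46. Exons of Mars overlap those of Ddit3, the CHOP gene, over 68 bases, and Ddit3 was 28.02 FPKM in vehicle, 194.6 FPKM in shikonin and 243 FPKM in TEPP-46. Strand use in counting is not stated in the sources, and the part of Ddit3 reads in the Mars level was not tested.

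On the high side with shikonin, Aars differed by 0.97 (counting SE 0.015). Sars stood at 112.0 FPKM in shPKM2, 103 FPKM in shControl, 95.3 FPKM in vehicle, 155 FPKM in shikonin and 178.0 FPKM in TEPP-46. Nars differed by 0.65 (counting SE 0.014). These 3 genes were also past 1.5-fold with TEPP-46, whereas Wars (0.06), Eprs (0.01), Gars (0.14) and Lars (0.10) were close to vehicle in shikonin.

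Mitochondrial genes stood lower with shikonin: 12 of 15 were lower, with a median of -0.18. That median was -0.102 with a pseudocount of 5 and -0.0706 without Gars, Kars and the genes with exon overlaps. Rars2, Iars2 and Vars2 were at least 1.5-fold lower, 20% of the mitochondrial genes against 13.4% of all genes. Rars2, the mitochondrial arginine enzyme on chromosome 4 (34614957 to 34660167, plus strand), stood at 14.8 FPKM in shPKM2, 15.9 FPKM in shControl, 18.3 FPKM in vehicle, 9.08 FPKM in shikonin and 21.7 FPKM in TEPP-46. Its shikonin level was the lowest of the 5 and 0.496 times that of vehicle, just past 2-fold as a plain ratio but not with the added 1 (-0.94, counting SE 0.079). Iars2 was 27.1 FPKM in shPKM2, 26.6 FPKM in shControl, 30.4 FPKM in vehicle, 18.97 FPKM in shikonin and 32.1 FPKM in TEPP-46, again with shikonin alone at the bottom. Exons of Iars2 overlap Rab3gap2 and a further gene model over 2148 bases.

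Vars2 was 6.16 FPKM in vehicle and 3.66 FPKM in shikonin, Cars2 11.9 FPKM and 7.90 FPKM, and Tars2 22.2 FPKM and 17.2 FPKM. Shikonin held the lowest of the 5 levels for 8 of the 15 mitochondrial genes. The share of all genes lowest in shikonin was not computed, so this count is not read as particular to the mitochondrial genes. The 3 mitochondrial genes that were higher were Hars2 (histidine, 0.22), Sars2 (0.21) and Mars2 (0.07). Hars2 overlaps its cytosolic neighbour Hars over 195 bases, so reads of the pair may be split uncertainly. Mitochondrial levels are low, and their counting SE reached 0.099 in any comparison.

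Each amino acid with a gene for both compartments gives a pair, 13 in all when Farsa stands for the phenylalanine enzyme. With TEPP-46 the cytosolic difference exceeded the mitochondrial difference in 12 of 13 pairs, with a median gap of 0.45. Mars and Mars2 were the exception, and in Farsa with Fars2 the gap was 0.00, in Hars with Hars2 0.06 and in Vars with Vars2 0.06, within their counting SE of 0.070, 0.066 and 0.064. The largest gap was in tyrosine, where Yars was at 0.64 and Yars2 at -0.35. Yars2 stood at 21.3 FPKM in shPKM2, 21.6 FPKM in shControl, 26.5 FPKM in vehicle, 26.3 FPKM in shikonin and 20.5 FPKM in TEPP-46, so that TEPP-46 was the lowest library for the mitochondrial gene and the highest for the cytosolic gene.

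With shikonin the cytosolic difference exceeded the mitochondrial difference in 10 of 13 pairs, with a median gap of 0.49. That count uses Farsa, whose gap to Fars2 was 0.42. With Farsb in place of Farsa the gap was -0.04 (counting SE 0.078). In 9 pairs, again with Farsa, the cytosolic gene was higher and the mitochondrial gene lower than in vehicle, against 4 pairs with TEPP-46. Some of these signs lay within counting error. With shikonin they were those of Wars2 (-0.03, counting SE 0.077) and Yars2 (-0.01, counting SE 0.044). With TEPP-46 they were those of Aars2 (-0.02, counting SE 0.071) and Hars2 (-0.01, counting SE 0.058). The arginine pair had the largest gap with shikonin, 1.31 (counting SE 0.082), with Rars at 0.37 and Rars2 at -0.94. Nars with Nars2 followed at 1.10 and Aars with Aars2 at 1.07. Vars and Vars2 were lower together (-0.69 and -0.62), and Mars was lower than vehicle while Mars2 was not. Between the control libraries, shControl and vehicle, the cytosolic difference was the higher in 4 of 13 pairs and the median gap was -0.09.

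Eprs serves both glutamate and proline, and was set beside Ears2 and Pars2, the separate mitochondrial enzymes. With TEPP-46 Eprs was at 0.80, Ears2 at 0.20 and Pars2 at 0.19. With shikonin these were 0.01, -0.15 and -0.19. Qars has no mitochondrial counterpart, because mitochondria charge that transfer RNA with glutamate and convert it through the amidotransferase subunits encoded by Qrsl1, Gatb and Gatc. Those 3 genes were within 0.01 to 0.13 of vehicle with TEPP-46, while with shikonin Qrsl1 stood at 0.18, Gatb at -0.24 and Gatc at -0.45.

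**Figure D4:**
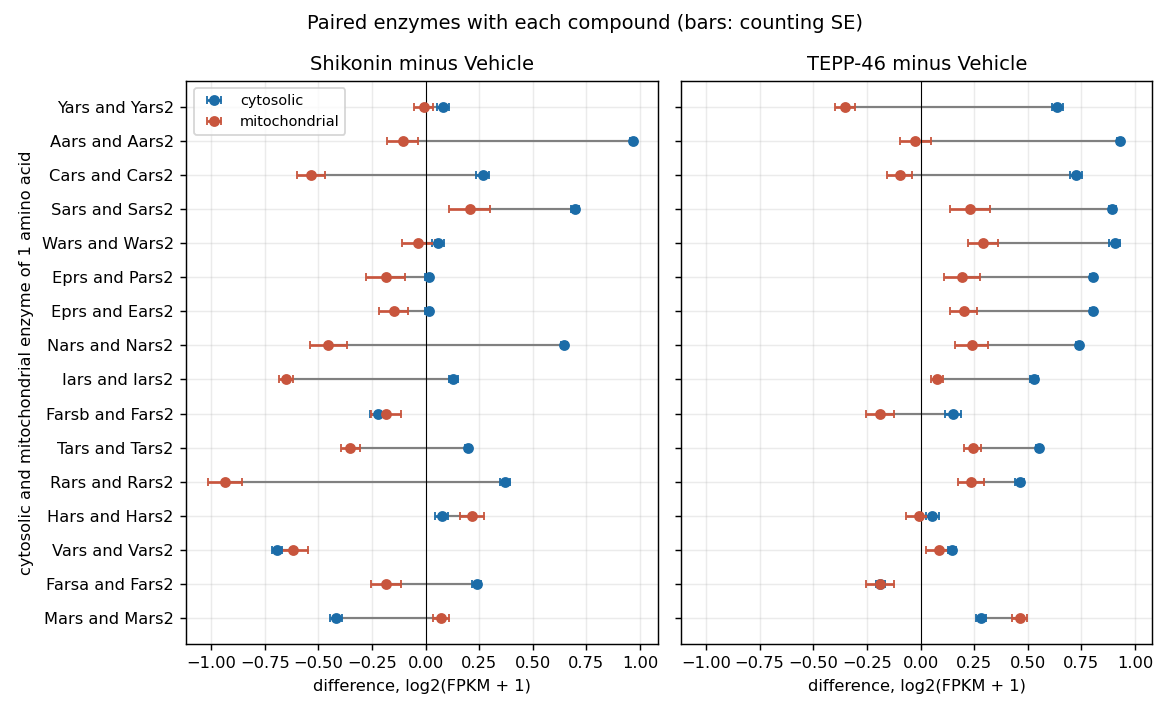
Difference from vehicle in log2(FPKM + 1) for the cytosolic (blue) and mitochondrial (red) gene of each amino acid, with shikonin on the left and TEPP-46 on the right, bars showing the counting SE and grey lines joining a pair. With TEPP-46 the blue point lies to the right in most rows, and with shikonin the widest row is Rars with Rars2, a gap of 1.31.

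Set directly against TEPP-46, shikonin gave lower levels of 15 of 20 cytosolic genes and 12 of 15 mitochondrial genes. The medians were -0.39 and -0.38, against -0.04 over all genes, and the mitochondrial median was -0.214 with a pseudocount of 5. Past 1.5-fold were 7 cytosolic genes (Dars, Wars, Vars, Eprs, Mars, Lars and Gars) and 5 mitochondrial genes (Rars2, Iars2, Vars2, Nars2 and Tars2), all lower in shikonin, against 14.2% of all genes. Rars2 was the only member past 2-fold in any of the 5 comparisons on the log2(FPKM + 1) scale (-1.17, counting SE 0.080), against 3.64% of all genes. Farsa (0.43), Qars (0.38), Yars2 (0.34), Hars2 (0.22) and Kars (0.16) were higher in shikonin.

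The shPKM2 library was compared with shControl to see how these genes stood when a hairpin against PKM2 was carried for 72 h. The synthetase levels lay close together. No member was 1.5-fold higher or lower, against 1.02% and 0.818% of all genes, and at 2-fold the shares of all genes were 0.395% and 0.225%. The cytosolic median was 0.05, with 15 of 20 higher, and the mitochondrial median 0.03, with 8 of 15 higher. After rescaling to TPM these medians were 0.114 and 0.0856. Without Gars, Kars and the genes with exon overlaps they were 0.0915 and -0.0235, and with vehicle as the control -0.174 and -0.0871. The cytosolic extremes were Eprs (0.16) and Gars (-0.04). The mitochondrial extremes were Wars2 (0.26) and Aars2 (-0.22), whose counting SE was 0.080 and 0.074. For 10 of the 20 cytosolic and 11 of the 15 mitochondrial genes the difference was smaller than 1.96 times its counting SE.

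The control hairpin library differed from vehicle by more than from shPKM2: the median absolute difference of the cytosolic genes was 0.20 and 0.05. Over all genes the quartiles of the difference were -0.213 and 0.199 for shControl minus vehicle. They were -0.105 and 0.106 for shPKM2 minus shControl, so the wider distance was not particular to the synthetases. No member was 1.5-fold different between shControl and vehicle, against 8.11% of all genes higher and 3.28% lower (3.48% and 0.665% at 2-fold). In shControl 16 of 20 cytosolic genes (median -0.20) and 10 of 15 mitochondrial genes (median -0.16) were lower than in vehicle. For 11 of 20 cytosolic and 2 of 15 mitochondrial genes both hairpin levels lay below all 3 levels of the 8 h libraries. The share of all genes with that order was not computed, so the counts are not read as particular to the synthetases. Iars, for example, was 59.8 FPKM in shPKM2 and 55.8 FPKM in shControl, and 73.5 FPKM in vehicle, 80.5 FPKM in shikonin and 106.6 FPKM in TEPP-46. Mars2 was 4.42 FPKM and 4.56 FPKM with the hairpins, 6.87 FPKM in vehicle, 7.27 FPKM in shikonin and 9.84 FPKM in TEPP-46. Of the ATF4 readouts, Ddit3 (1.72), Chac1 (1.03), Trib3 (0.71) and Atf4 (0.16) were higher in shControl than in vehicle. Asns (-0.81) and Psat1 (-0.37) were lower, so the list did not move as a whole there.

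Other genes of tRNA charging and use gave smaller or mixed differences. Xpot, which encodes the exporter of transfer RNA from the nucleus, differed from vehicle by 0.89 with TEPP-46. It stood at 37.8 FPKM in shPKM2, 33.4 FPKM in shControl, 46.8 FPKM in vehicle, 60.5 FPKM in shikonin and 87.5 FPKM in TEPP-46. With TEPP-46, Xpot and Elac1 were past 1.5-fold among the 5 listed genes of tRNA maturation and export, against 3.44% of all genes. All 4 listed editing genes, whose proteins remove wrongly attached amino acids, were lower with shikonin, and Aarsd1 (-0.83) and Dtd1 (-0.71) were past 1.5-fold, against 13.4% of all genes. Cytosolic elongation factors had a median of 0.27 with shikonin and 0.10 with TEPP-46, and mitochondrial elongation factors of -0.11 and -0.07, with Tsfm at -0.52 in shikonin. None of these 9 elongation genes was past 1.5-fold in either comparison.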

How the data were processed

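RNA of 5 libraries of C2C12 cells was analysed, 1 per condition. The authors deposited a table of FPKM values with 1 column per library, matched to conditions by name. Per the submitters' processing notes, Trim Galore 0.6.0, cutadapt, FastQC and DESeq2 1.26.0 were among the tools and the build was GRCm38. For the aligner, the annotation and strand use nothing is given in the sources used here. FPKM values are not counts, so no count model was used, and with 1 library a condition no test was made.

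Differences are those of log2(FPKM + 1), and all genes means the 11128 with a mean of at least 1 FPKM. Of 1799 low genes, 77.04% had values that were whole multiples of 1 step in every library within 0.02, and the commonest step ratios gave relative depths. Lengths of 242 single-transcript GENCODE M21 genes set the absolute scale, so depths and reads are estimates. The median-of-ratios factors of the columns, 0.998 to 1.001, show that scaling was close to such a factor, to which the depths are relative. The counting SE uses estimated reads and the longest transcript, and leaves out variation between cultures and in library preparation. The step search and the difference were tested on simulated data. Coordinates and exon overlaps come from GENCODE M21, promoters from RefSeq, where Mars was matched as Mars1. Gatb was read from the row with its older symbol Pet112.

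The members, gene lists, motifs and comparisons were chosen with earlier results of these data known. Every member could be named. Alternatives were other pseudocounts, filters, rescaling to TPM, the other control library, and leaving out Gars, Kars and the 13 members with exon overlaps. Python 3.11.15, pandas 2.3.3 and numpy 2.4.6 were used.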

Additional observations from a re-analysis of the deposited data

How the results depend on the processing

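No paired analysis was possible because each condition had 1 library. Of the 29 member differences past 1.5-fold, 29 stayed past it with a pseudocount of 0.1, 24 with a pseudocount of 5 and 28 after rescaling to TPM. A pseudocount cannot change the direction of a difference. Rescaling to TPM shifts all genes of a comparison by nearly the same small amount, so kept directions are no check here. With shControl as the control of the compounds, 17 of 17 kept their direction and 15 stayed past 1.5-fold. That control gave cytosolic medians of 0.345 for shikonin and 0.717 for TEPP-46. The gaps between the cytosolic and mitochondrial medians were 0.477 and 0.596 in place of 0.299 and 0.349. At least 2-fold higher were 1 and 5 cytosolic genes in place of 0, and the share of all genes was not computed for that contrast. The contrast also differs in hairpin and time, and 16 of 20 cytosolic genes stood lower in shControl than in vehicle (median -0.20). Set against vehicle, shPKM2 had a cytosolic median of -0.174, opposite in sign to that against shControl. Rescaling to TPM gave cytosolic medians of 0.114 for shPKM2 against shControl, 0.047 for shikonin, -0.435 for shikonin against TEPP-46 and -0.274 for shControl against vehicle, where 1 mitochondrial gene was then 1.5-fold lower. A pseudocount of 5 gave a mitochondrial median of -0.214 for shikonin against TEPP-46, and left 1 mitochondrial gene 1.5-fold lower with shikonin (3 otherwise) and 2 against TEPP-46 (5 otherwise). Leaving out Gars, Kars and the 13 genes with exon overlaps kept 12 cytosolic and 8 mitochondrial genes, of which 5 cytosolic were 1.5-fold higher with TEPP-46, 1 mitochondrial 1.5-fold lower with shikonin and 2 lower against TEPP-46. These are smaller sets by construction. With a minimum mean of 5 FPKM the TEPP-46 mitochondrial median was 0.0768 in place of 0.193, and without the genes with exon overlaps the shikonin mitochondrial median was -0.0706 in place of -0.184. The cause of the other changes was not tested, and depth limits mainly the mitochondrial genes.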
